A study of Mus musculus with 10 samples.

Results

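The Hox genes of the A, B, C and D clusters were described in mouse embryonic fibroblasts and in 3 kinds of mouse pluripotent cell. The members were all protein-coding genes of the count table whose symbol is Hox followed by a cluster letter from a to d and a paralogue number. The rule found 40 gene IDs of 54532 in the table, which carry 39 symbols because Hoxd4 has 2 IDs. One of these IDs, ENSMUSG00000101174, was at 0 in every library, so values for Hoxd4 are those of ENSMUSG00000115956. RNA sequencing gave 10 libraries, all of strain 129SV, with total counts of 15862113 to 18814003. There were 5 libraries of epiblast stem cells (EpiSC), the pluripotent cells grown from the epiblast after implantation. Of these, haEpi1 and haEpi5 carry the labels haploid and p53-KO, Epi_fema (read here as female) and Epi_male carry the labels diploid and wild type, and 1 library is labelled diploid p53-KO. Epiblast-like cells (EpiLC) gave 1 haploid p53-KO library and 1 haploid library labelled wild type. Embryonic stem cells (ESC) gave 1 haploid and 1 diploid library, both wild type, and diploid wild-type embryonic fibroblasts (MEF) gave 1. The embryonic stage and body region of the MEF, and whether other cells grew in the stem cell cultures, are not given in the sources used here. Libraries of different line, sex, p53 label and ploidy were pooled within a cell type, so p-values measure the spread over those differences too.

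Hox genes encode homeodomain transcription factors that give cells their position along the head-to-tail axis and along the limb. The genes lie in each cluster in the order of the body regions that they pattern, with low paralogue numbers towards the head and high numbers towards the tail. In pluripotent cells the clusters are held silent by Polycomb complexes, and fibroblasts taken from different body sites keep different combinations of active Hox genes in culture. In the annotation of the files (mm10) the A cluster lay on chromosome 6 and held 11 genes. The B cluster members spanned chr11:96194316-96368256 and held 10 genes. The C cluster members spanned chr15:102921103-103036852 with 9 genes. The D cluster members spanned chr2:74668310-74765142 with 10 IDs.

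Promoter sequences of the RefSeq annotation (GRCm38.p6), from 250 bases before to 50 bases after a start site, were found for 22 of the 39 symbols, in 24 windows. The windows of Hoxb1 and Hoxa5 are shown because Hoxb1 stood apart in 1 EpiSC library and Hoxa5 had the highest level of any member in 2 EpiSC libraries. The Hoxb1 window lies at chr11:96365508-96365807 on the plus strand, and capitals mark a match to TGATNNAT, the motif of Pbx-Hox dimers:
Hoxb1: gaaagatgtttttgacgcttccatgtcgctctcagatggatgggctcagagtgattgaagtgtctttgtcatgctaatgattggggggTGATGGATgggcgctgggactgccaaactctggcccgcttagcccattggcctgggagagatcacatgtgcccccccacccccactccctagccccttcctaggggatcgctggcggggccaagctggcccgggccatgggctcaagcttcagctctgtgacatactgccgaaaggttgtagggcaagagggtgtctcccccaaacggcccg
The Hoxa5 window lies at chr6:52204538-52204837 on the minus strand, and capitals mark its CG dinucleotides:
Hoxa5: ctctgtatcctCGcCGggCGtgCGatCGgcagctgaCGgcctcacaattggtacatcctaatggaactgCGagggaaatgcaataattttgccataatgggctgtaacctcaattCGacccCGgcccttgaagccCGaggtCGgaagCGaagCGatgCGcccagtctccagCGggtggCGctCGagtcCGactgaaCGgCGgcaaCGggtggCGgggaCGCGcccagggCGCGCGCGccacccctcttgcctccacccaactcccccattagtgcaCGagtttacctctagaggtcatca
The Hoxa5 window held 29 CG dinucleotides and the Hoxb1 window 10. The median was 14.5 over the 24 Hox windows (range 4 to 45) and 7 over the 32851 windows of all genes. Searched on both strands, TGATNNAT occurred in 16.7% of the Hox windows (those of Hoxa2, Hoxb1, Hoxb8 and Hoxd11) and in 8.85% of all windows. AGGTCA, the half-site of nuclear receptors such as the retinoic acid receptors, occurred in 29.2% and 16.3%, and TATAAA in 16.7% and 13.6%. Such a match is a string of letters and was not tested for binding.

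The clusters also hold microRNA genes whose products target Hox messages. They are shown because they group by seed across clusters, with the seed (bases 2 to 8) in capitals and sequences from RefSeq:
miR-196a-5p: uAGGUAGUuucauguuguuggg
miR-196b-5p: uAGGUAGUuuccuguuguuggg
miR-10a-5p: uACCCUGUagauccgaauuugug
miR-10b-5p: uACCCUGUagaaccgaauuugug
Both miR-196 products share the seed AGGUAGU and both miR-10 products the seed ACCCUGU. The known target site of miR-196a in the 3′ UTR of Hoxb8, at chr11:96284888-96284909 on the plus strand, pairs with 21 of the 22 bases of the microRNA and has 1 G:U pair. It is given with capitals where it pairs with the seed:
Hoxb8 site: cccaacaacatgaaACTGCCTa
A perfect match to the miR-196a seed was found in the annotated 3′ UTR of 9 of the 39 symbols, among them Hoxa4, Hoxa5, Hoxa7, Hoxa9, Hoxb1, Hoxb6, Hoxb7 and Hoxc8. A match to the miR-10a seed was found in 4, among them Hoxa3, Hoxb3 and Hoxd1. Mature microRNAs are not measured by these poly-A-selected libraries.

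Levels between genes are compared in FPKM, the authors' deposited fragment counts scaled by gene length and a constant per library. Relative to scaling by the total count, this constant ran from 0.8996 in Epi_fema to 1.2 in MEF. Levels relative to MEF carry this difference. Intervals are exact Poisson 95% intervals of the count on that scale and cover counting error only. The single libraries of MEF and of each EpiLC and ESC genotype have no replicate of their own.

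Before the Hox genes, the labels were set against markers. The 25 fibroblast genes summed to 12710 FPKM in MEF. The sum was 251 to 603 FPKM in EpiSC, 44.1 to 87.7 FPKM in EpiLC and 170.5 to 392 FPKM in ESC. Fn1 was the highest of the 25 in every pluripotent library but haploid ESC, and it alone held 162 FPKM of the sum in diploid ESC. In MEF it was at 648 FPKM, where Col1a1 was highest (3880 FPKM). A median gives each of the 25 genes the same weight. As a median over these genes, the level relative to MEF was 7.01% in haEpi5, 4.43% in haEpi1, 3.47% in haploid ESC and 3.07% in Epi_fema. It was 1.52% in Epi_male, 1.16% in diploid p53-KO EpiSC, 0.596% in p53-KO EpiLC, 0.0388% in wild-type EpiLC and 0.00664% in diploid ESC. In diploid ESC 8 of the 25 were at 0, among them Col3a1, Dcn, Postn and Prrx1. Pou5f1, which encodes Oct4, was at 170.3 to 505.5 FPKM in the pluripotent libraries and at 0 in MEF. Zfp42, a marker of the naive state, was at 97.6 and 288 FPKM in ESC, at most 1.24 FPKM in EpiSC, 14.1 FPKM in wild-type EpiLC and 74.4 FPKM in p53-KO EpiLC. Of 12 pluripotency genes 7 were lower and 3 higher in EpiSC than in ESC, with Esrrb (log2 fold change -6.54) lower and Fgf5 (8.64) higher. Trp53, the gene named in the p53-KO labels, was at 12.1 FPKM in haEpi1, 14.8 in haEpi5, 0.514 in diploid p53-KO EpiSC and 8.0 in p53-KO EpiLC. In libraries labelled wild type it was at 8.89 FPKM in Epi_fema, 47.4 in Epi_male, 7.14 in haploid ESC, 93.4 in diploid ESC, 87.4 in wild-type EpiLC and 33.0 in MEF. The Trp53 level therefore did not separate the labels, and each genotype here is the one in the label. In bulk RNA, fewer cells of a type and less RNA per cell cannot be told apart.

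The MEF library expressed a broad stretch of all 4 clusters, centred on the middle paralogues. The members summed to 185.7 FPKM, and 30 of the 40 IDs were at or above 1 FPKM. The C cluster held 72.2 FPKM, the A cluster 50.2, the B cluster 42.0 and the D cluster 21.4. Paralogues 4 to 8 made up 57.8% of the sum, paralogues 9 to 13 made up 36.9% and paralogues 1 to 3 made up 5.3%. The 2 highest members, Hoxc8 at 15.8 FPKM (95% interval 14.7 to 17.1) and Hoxc6 at 15.5 FPKM (95% interval 14.3 to 16.8), are thoracic patterning genes, and their intervals overlapped.

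**Figure D1:**
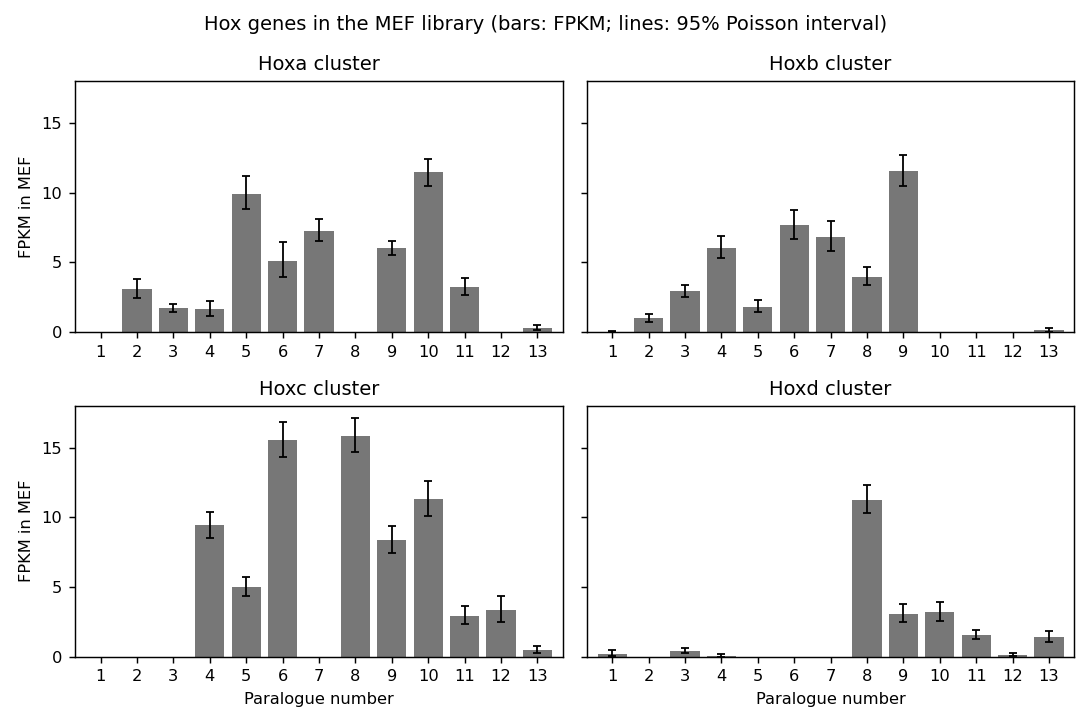
Level of Hox genes in the MEF library by paralogue number, 1 panel per cluster, in FPKM; bars are the value and lines the 95% Poisson interval, and a number without a bar has no gene, is not shown or, for Hoxb1, has a level of 0. Within each cluster the highest bar stands between paralogues 8 and 10 (Hoxa10, Hoxb9, Hoxc8, Hoxd8), and all paralogues 13 but Hoxd13 (1.41 FPKM) lie under 0.5 FPKM.

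Along the A cluster the level was low at the anterior end, with Hoxa2 at 3.09 FPKM, Hoxa3 at 1.73 and Hoxa4 at 1.66. It was higher from Hoxa5 (9.93 FPKM) through Hoxa6 (5.07), Hoxa7 (7.29) and Hoxa9 (6.02) to Hoxa10 (11.5), and lower at Hoxa11 (3.21) and Hoxa13 (0.267). The B cluster went from 0 counts of Hoxb1 and 1.0 FPKM of Hoxb2 through Hoxb3 (2.92), Hoxb4 (6.05), Hoxb5 (1.83), Hoxb6 (7.67), Hoxb7 (6.81) and Hoxb8 (3.99) to Hoxb9 (11.6). A count of 0 allows up to 0.0854 FPKM of Hoxb1, and Hoxb13, the one B member beyond Hoxb9, was at 0.12 FPKM.

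The C cluster, which has no paralogues 1 to 3, was high from its first gene on. Hoxc4 stood at 9.42 FPKM, Hoxc5 at 5.01, Hoxc6 at 15.5, Hoxc8 at 15.8, Hoxc9 at 8.38 and Hoxc10 at 11.3, followed by Hoxc11 at 2.94, Hoxc12 at 3.33 and Hoxc13 at 0.483. In the D cluster the anterior genes Hoxd1 (0.213 FPKM), Hoxd3 (0.41) and Hoxd4 (0.0775) were all low. Hoxd3 shares 62.8% of its exon bases with other genes and the 2 Hoxd4 IDs overlap each other, so the levels of Hoxd3 and Hoxd4 are uncertain. Hoxd8 was at 11.2 FPKM, the highest D member, and Hoxd9 (3.1), Hoxd10 (3.2), Hoxd11 (1.58), Hoxd12 (0.13) and Hoxd13 (1.41) lay below it. Thus the paralogues 9 to 11, which pattern the posterior trunk and the limb, were present in every cluster that has them. Of the genital and digit paralogues 13, the highest was Hoxd13.

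In the pluripotent libraries the members were lower in sum, but unevenly so. The sum over all members was 40.2 FPKM in haEpi1, 29.9 in haEpi5, 39.6 in Epi_fema, 4.17 in Epi_male and 11.5 in diploid p53-KO EpiSC. It was 7.66 FPKM in p53-KO EpiLC, 3.16 in wild-type EpiLC, 32.2 in haploid ESC and 19.4 in diploid ESC. Members at or above 1 FPKM numbered 12, 11, 16, 0 and 3 in the EpiSC libraries in the same order, 1 and 0 in the EpiLC libraries, and 12 and 4 in the ESC libraries. The 2 wild-type EpiSC libraries stood far apart, with Epi_fema at 21.3% and Epi_male at 2.24% of the MEF sum.

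**Figure D2:**
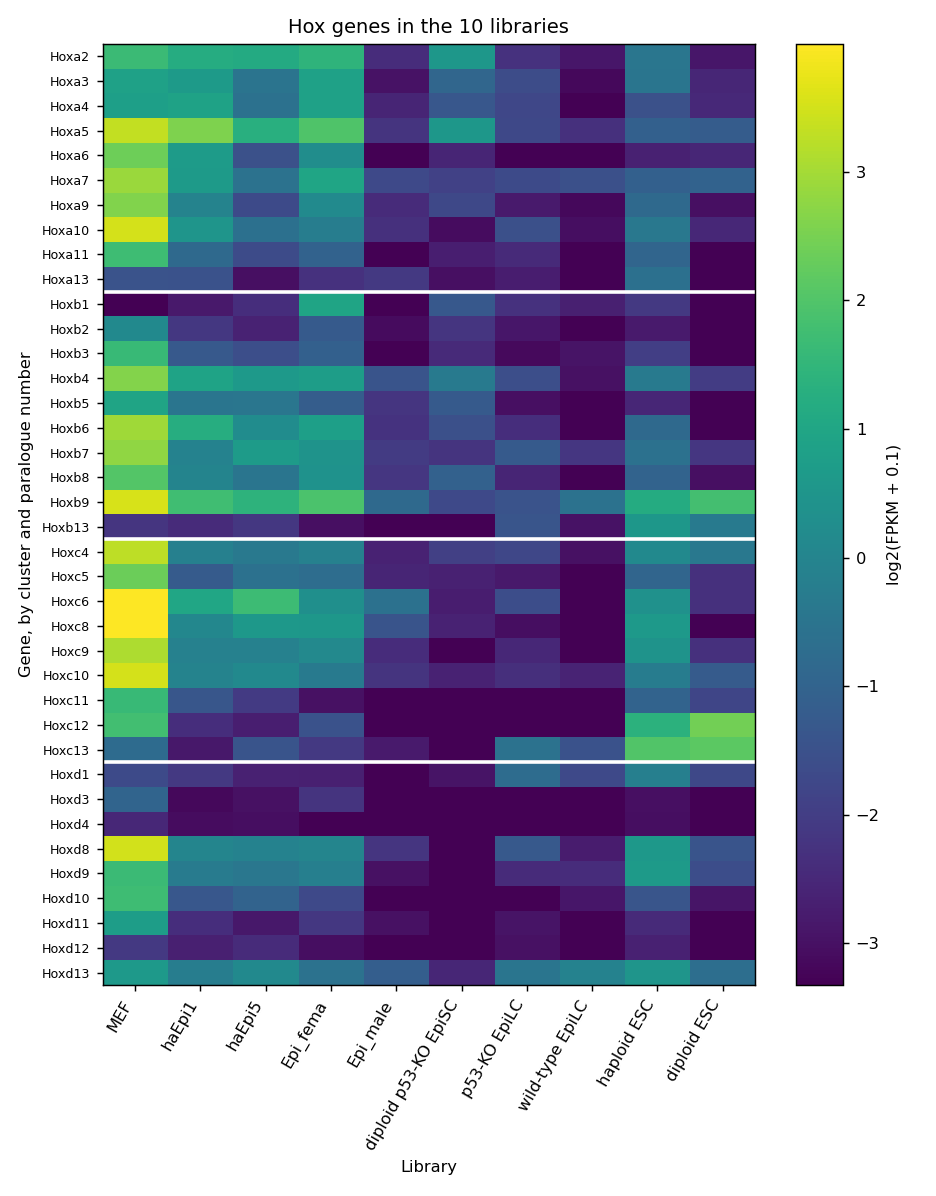
Level of Hox genes (rows, by cluster and paralogue number) in the 10 libraries (columns), coloured by log2(FPKM + 0.1); the Hoxd4 ID at 0 throughout is among those left out. MEF is bright over the middle of each cluster, haEpi1, haEpi5, Epi_fema and haploid ESC are intermediate, and Hoxb1, Hoxc12 and Hoxc13 depart from the MEF pattern.

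The 4 pluripotent libraries with the largest sums, haEpi1, Epi_fema, haploid ESC and haEpi5, were also the 4 with the highest fibroblast medians, though not the 4 with the highest fibroblast sums. Over the 30 members at or above 1 FPKM in MEF, the median level relative to MEF was 13.4% in haEpi1, 10.5% in haEpi5, 17.7% in Epi_fema and 8.82% in haploid ESC. In the other pluripotent libraries it was 1.46% (Epi_male), 1.71% (diploid p53-KO EpiSC), 1.92% (p53-KO EpiLC), 0.181% (wild-type EpiLC) and 1.6% (diploid ESC). The Hox median was thus above the fibroblast median in all of these libraries but Epi_male. The highest pluripotent level of a member was in Epi_fema for 9 of the 30, in haEpi1 for 7, in haploid ESC for 7, in haEpi5 for 6 and in diploid ESC for 1. The part of fibroblast RNA in these levels was not tested.

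**Figure D3:**
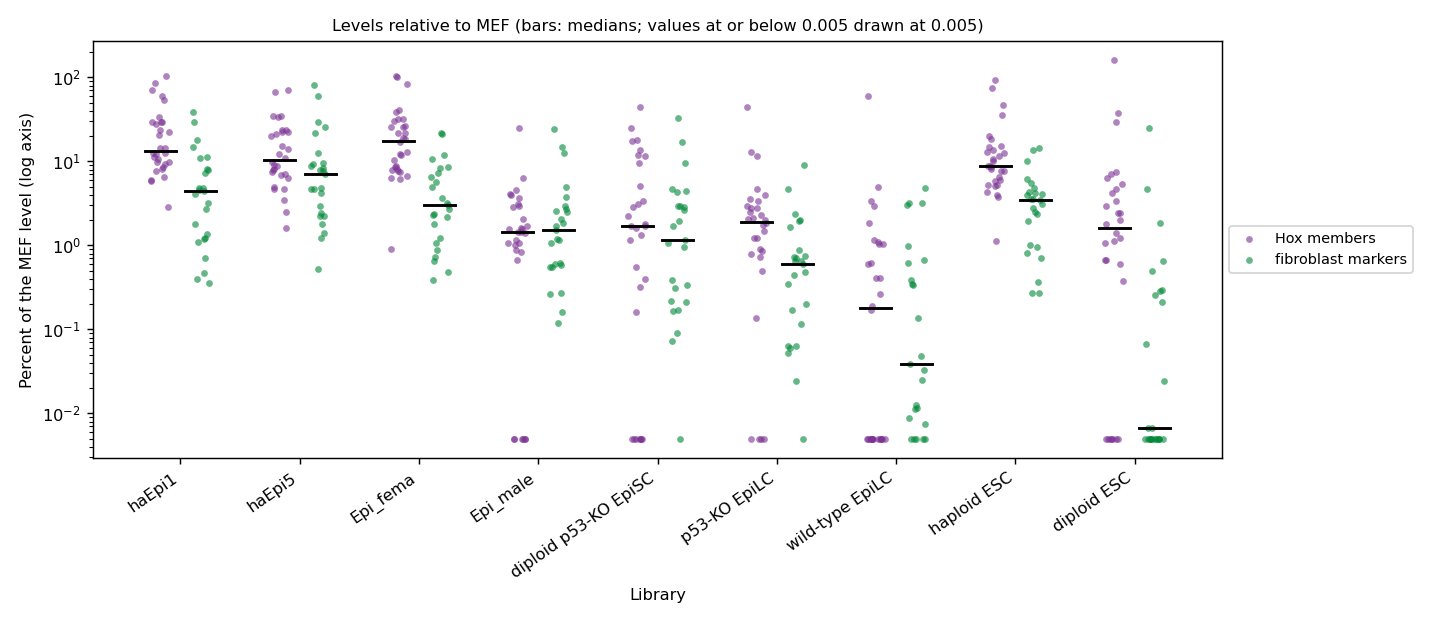
Level as a percent of the MEF level (log axis) for the 30 Hox members at or above 1 FPKM in MEF (purple) and the 25 fibroblast genes (green) in each pluripotent library; points are genes, black bars medians, and values at or below 0.005% are drawn at 0.005%. The Hox medians run from 0.181% to 17.7% and the fibroblast medians from 0.00664% to 7.01%.

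Across the 40 IDs, the order of the members followed that of MEF to different degrees. As a description, Spearman's rho with the MEF FPKM was 0.696 in haEpi1, 0.682 in haEpi5, 0.547 in Epi_fema and 0.563 in Epi_male. It was 0.208 in diploid p53-KO EpiSC, 0.166 and 0.0826 in p53-KO and wild-type EpiLC, and 0.387 and 0.296 in haploid and diploid ESC. These points share library depth, and neighbouring genes are not independent. In diploid ESC 78.7% of the Hox sum lay in paralogues 9 to 13. In haEpi1, haEpi5, Epi_fema and Epi_male the largest share lay in paralogues 4 to 8, at 54.6%, 52.4%, 48.8% and 54.1%, as in MEF. In diploid p53-KO EpiSC 34.7% lay there and the largest share, 59.7%, in paralogues 1 to 3.

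MEF against EpiSC was tested with edgeR's quasi-likelihood test over all genes, with Benjamini-Hochberg adjustment at 0.05. Of the 40 members 7 (17.5%) were higher in MEF and none lower, where 8.79% of all 21104 genes tested were higher and 5.93% lower. A low-count filter was passed by 37 members, and Hoxd12 and both IDs of Hoxd4 were not tested. Because the filter admits a gene high in the 1 MEF library alone, such a member had to differ. The median log2 fold change was 3.0 over these 37 members and -0.109 over all genes tested, and 23 members were at an unadjusted p under 0.05. How many of all genes were under that p was not counted. Of the 7, 5 lie in the C cluster (Hoxc4, Hoxc5, Hoxc10, Hoxc11 and Hoxc12), and the others were Hoxa10 and Hoxd11.

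Hoxc10, a lumbar and hindlimb patterning gene, was at 11.3 FPKM in MEF and 0.866 in haEpi1, 1.02 in haEpi5, 0.698 in Epi_fema, 0.114 in Epi_male and 0.0623 in diploid p53-KO EpiSC, with 0.0972 and 0.0672 in p53-KO and wild-type EpiLC and 0.743 and 0.328 in haploid and diploid ESC. MEF lay above all 5 EpiSC libraries, with a log2 fold change of 4.26 ± 0.937 (SE; edgeR adjusted p = 0.0153). Hoxc4, a cervical patterning gene, was at 9.42 FPKM in MEF and 0.814 in haEpi1, 0.671 in haEpi5, 0.83 in Epi_fema, 0.0637 in Epi_male and 0.162 in diploid p53-KO EpiSC, with 0.193 and 0.025 in p53-KO and wild-type EpiLC and 1.01 and 0.658 in haploid and diploid ESC. Its log2 fold change was 4.12 ± 0.938 (edgeR adjusted p = 0.0179), again with no overlap. Hoxc12, a posterior member, was at 3.33 FPKM in MEF and between 0 and 0.258 FPKM in EpiSC, a log2 fold change of 5.14 ± 1.04 (edgeR adjusted p = 0.0128).

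Hoxa10, which patterns the lumbar spine and the uterus, was at 11.5 FPKM in MEF and 1.29 in haEpi1, 0.544 in haEpi5, 0.766 in Epi_fema, 0.1 in Epi_male and 0.0182 in diploid p53-KO EpiSC, with 0.246 and 0.0196 in p53-KO and wild-type EpiLC and 0.666 and 0.0766 in haploid and diploid ESC. Its log2 fold change was 4.31 ± 1.28, at the edge of the threshold (edgeR adjusted p = 0.0497). The call was lost on leaving out any one of the 5 EpiSC libraries. Hoxc5 was at 5.01 FPKM in MEF and 0.0577 to 0.558 FPKM in EpiSC (log2 fold change 3.94, edgeR adjusted p = 0.0275). Hoxc11 was at 2.94 FPKM against 0 to 0.289 FPKM (4.86, edgeR adjusted p = 0.0313). Hoxd11, which acts in the forearm and kidney, was at 1.58 FPKM against 0 to 0.126 FPKM (4.67, edgeR adjusted p = 0.0267). For all 7 called members the MEF level lay above all 5 EpiSC libraries. The same held for members not called, among them Hoxb9, Hoxc8, Hoxc6 and Hoxa5. How many of all genes do so was not counted, so this separation adds no support to the calls. Exons of Hoxc5 and Hoxc10 overlap on the same strand over 5.37% and 8.7% of their bases, so a few of their reads could belong to either gene.

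The limits of this comparison lie in its single MEF library and in the uneven EpiSC libraries. With the wild-type libraries alone no member passed, where 0.131% of all genes tested were higher in MEF. Without haEpi5 the count was 4, with Hoxa10, Hoxc11 and Hoxd11 lost, where 7.75% of all genes were higher. Without the 4 pluripotent libraries highest in fibroblast genes, a setting chosen after seeing the data, 14 members were higher in MEF, 4 of them among the 7 (Hoxa10, Hoxc4, Hoxc5 and Hoxc10), where 5.32% of all genes were. Those 4 libraries (haEpi1, haEpi5, Epi_fema and haploid ESC) are the highest by the median level relative to MEF. They are also the 4 pluripotent libraries with the largest Hox sums, so leaving them out favours calls of higher in MEF. By the fibroblast sum diploid p53-KO EpiSC, at 407 FPKM, lay above haploid ESC (392) and Epi_fema (339). Fn1 alone held 110.7, 88.5 and 138.1 FPKM of these sums. Without the 4 highest by sum, also chosen after seeing the data, no member passed, where 1.2% of all genes were higher, so the count of 14 depends on how the libraries were ranked.

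Other members with high levels in MEF did not pass the test against EpiSC. Hoxc8 was at 15.8 FPKM in MEF and 0.944 in haEpi1, 1.39 in haEpi5, 1.35 in Epi_fema, 0.27 in Epi_male and 0.063 in diploid p53-KO EpiSC, with 0.0219 and 0 in p53-KO and wild-type EpiLC and 1.41 and 0 in haploid and diploid ESC (log2 fold change 4.21, edgeR adjusted p = 0.0612). Hoxc6 was at 15.5 FPKM in MEF and 1.9 in haEpi1, 3.14 in haEpi5, 1.15 in Epi_fema, 0.567 in Epi_male and 0.0494 in diploid p53-KO EpiSC, with 0.231 and 0 in p53-KO and wild-type EpiLC and 1.2 and 0.104 in haploid and diploid ESC (3.43, edgeR adjusted p = 0.113). For both genes the wild-type EpiLC library had 0 counts, diploid p53-KO EpiSC had 2 or 3, and haEpi5 was the highest EpiSC library.

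Hoxb9, the most posterior trunk gene of the B cluster, was at 11.6 FPKM in MEF and 3.25 in haEpi1, 2.57 in haEpi5, 3.71 in Epi_fema, 0.466 in Epi_male and 0.208 in diploid p53-KO EpiSC, with 0.264 and 0.573 in p53-KO and wild-type EpiLC and 2.14 and 3.38 in haploid and diploid ESC. It was the third highest member in EpiSC and in ESC by mean FPKM, and its diploid ESC level was close to that of haEpi1. Hoxb6 was at 7.67 FPKM in MEF and 2.25 in haEpi1, 1.08 in haEpi5, 1.66 in Epi_fema, 0.111 in Epi_male and 0.242 in diploid p53-KO EpiSC, with 0.0945 and 0 in p53-KO and wild-type EpiLC and 0.464 and 0 in haploid and diploid ESC. Hoxb7 was at 6.81 FPKM in MEF and 0.85 in haEpi1, 1.51 in haEpi5, 1.24 in Epi_fema, 0.141 in Epi_male and 0.116 in diploid p53-KO EpiSC, with 0.321 and 0.124 in p53-KO and wild-type EpiLC and 0.557 and 0.122 in haploid and diploid ESC. Both had 0 or 3 counts in wild-type EpiLC and in diploid ESC, and stood over 1 FPKM in haEpi5 and Epi_fema.

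Hoxd8 was at 11.2 FPKM in MEF and 0.904 in haEpi1, 0.851 in haEpi5, 0.913 in Epi_fema, 0.119 in Epi_male and 0 in diploid p53-KO EpiSC, with 0.316 and 0.0467 in p53-KO and wild-type EpiLC and 1.4 and 0.274 in haploid and diploid ESC. Hoxd9 was at 3.1 FPKM in MEF and 0.729 in haEpi1, 0.651 in haEpi5, 0.798 in Epi_fema, 0.0255 in Epi_male and 0 in diploid p53-KO EpiSC, with 0.0869 and 0.09 in p53-KO and wild-type EpiLC and 1.47 and 0.234 in haploid and diploid ESC. Hoxd10 was at 3.2 FPKM in MEF and 0.294 in haEpi1, 0.398 in haEpi5, 0.205 in Epi_fema, 0 in Epi_male and 0 in diploid p53-KO EpiSC, with 0 and 0.0353 in p53-KO and wild-type EpiLC and 0.279 and 0.0345 in haploid and diploid ESC. These D cluster genes were between 0 and 1 FPKM in every EpiSC library and had 0 counts in diploid p53-KO EpiSC. Haploid ESC was the highest pluripotent library for Hoxd8 and Hoxd9, and haEpi5 for Hoxd10.

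In EpiSC the order of MEF did not hold at the top. Among the highest by mean over the 5 libraries were Hoxa5 (2.71 ± 2.24 FPKM, SD), Hoxb9 (2.04 ± 1.61), Hoxa2 (1.67 ± 0.983), Hoxc6 (1.36 ± 1.21) and Hoxb4 (1.16 ± 0.643). Each SD spans Epi_male, which held 0.0922 FPKM of Hoxa2 and 0.116 FPKM of Hoxa5. Epi_male was the lowest EpiSC library for 17 of the 30 members and diploid p53-KO EpiSC for 13, where ties at 0 were counted for Epi_male.

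Hoxa2, which patterns the hindbrain and the second branchial arch, was at 3.09 FPKM in MEF and 2.19 in haEpi1, 2.1 in haEpi5, 2.58 in Epi_fema, 0.0922 in Epi_male and 1.37 in diploid p53-KO EpiSC, with 0.105 and 0.0361 in p53-KO and wild-type EpiLC and 0.628 and 0.0353 in haploid and diploid ESC. Hoxa5, a gene of the lung and cervical region whose promoter window is printed above, was at 9.93 FPKM in MEF and 5.91 in haEpi1, 2.34 in haEpi5, 3.8 in Epi_fema, 0.116 in Epi_male and 1.36 in diploid p53-KO EpiSC, with 0.198 and 0.102 in p53-KO and wild-type EpiLC and 0.378 and 0.334 in haploid and diploid ESC. haEpi1 and Epi_fema stood highest for Hoxa5 among the pluripotent libraries, and EpiLC and ESC were all under 0.4 FPKM. Hoxb4 was at 6.05 FPKM in MEF and 1.8 in haEpi1, 1.43 in haEpi5, 1.58 in Epi_fema, 0.276 in Epi_male and 0.695 in diploid p53-KO EpiSC, with 0.241 and 0.025 in p53-KO and wild-type EpiLC and 0.71 and 0.146 in haploid and diploid ESC. Hoxa3 and Hoxa4 reached the MEF level in single libraries: Hoxa3 was at 1.74 FPKM in Epi_fema against 1.73 in MEF, and Hoxa4 was at 1.74 FPKM in both haEpi1 and Epi_fema against 1.66. In all, 9 members were above MEF in at least 1 pluripotent library, and 31 in none.

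Hoxb1, the hindbrain gene that is switched on in the primitive streak, stood apart in 1 library. It was at 1.84 FPKM (95% interval 1.46 to 2.28) in Epi_fema, from 80 counts. It was at 0.0419 FPKM in haEpi1, 0.0958 in haEpi5, 0 in Epi_male, 0.307 in diploid p53-KO EpiSC, 0.107 in p53-KO EpiLC, 0.0552 in wild-type EpiLC, 0.131 in haploid ESC and 0 in MEF and diploid ESC. In Epi_fema the streak and posterior axis genes T (19.6 FPKM), Nkx1-2 (6.19), Cdx2 (7.54) and Msgn1 (1.48) were also higher than in every other library. In all, 8 of the 17 genes of that list were highest in Epi_fema and 9 in another library, with Eomes and Evx1 highest in haploid ESC and Cdx4 in Epi_male. T, which encodes Brachyury, was at most 0.722 FPKM elsewhere, and Msgn1 was at 0 in the other EpiSC libraries. These values come from 1 library and were not tested.

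**Figure D4:**
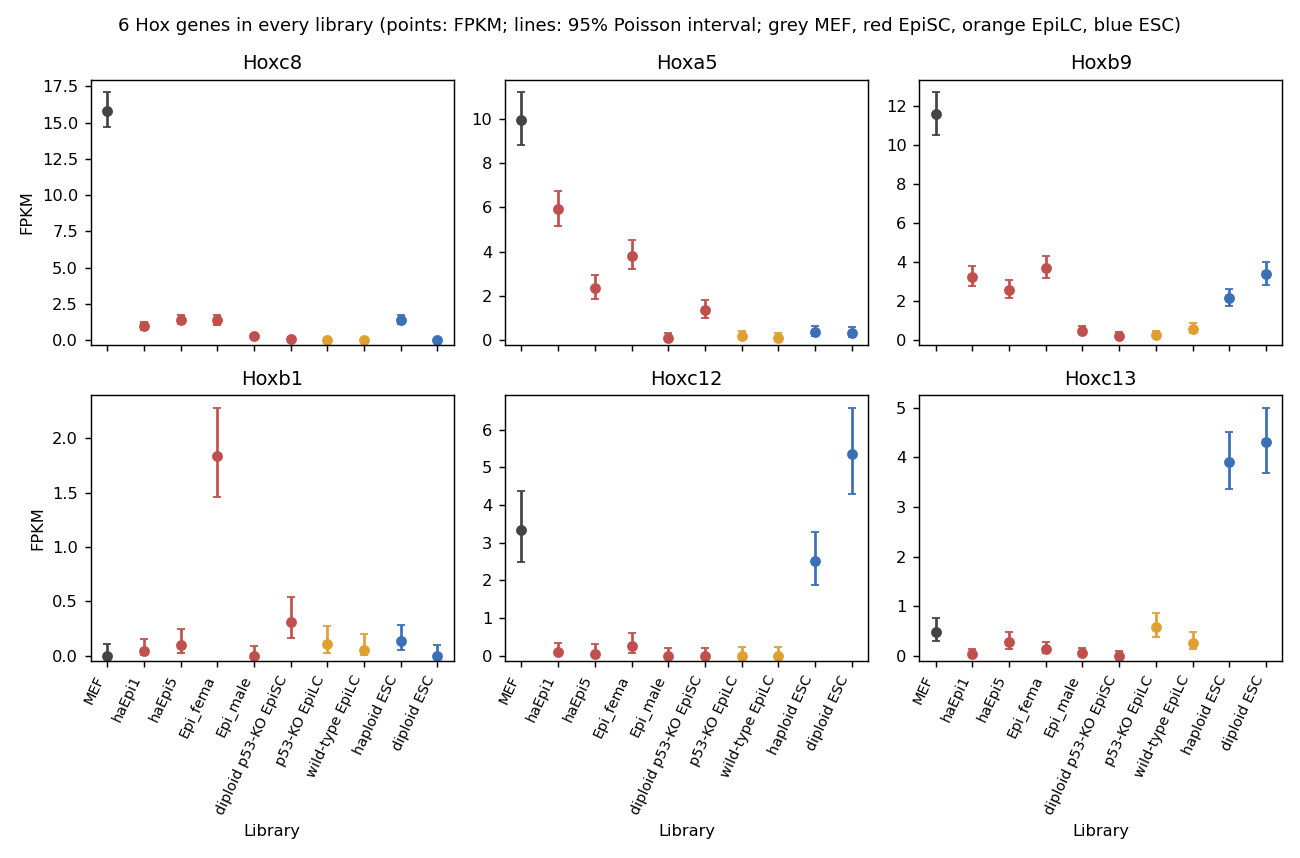
Level of 6 Hox genes in each of the 10 libraries, in FPKM; points are the value, lines the 95% Poisson interval, and colours the cell type, and each panel has its own axis. Hoxc8, Hoxa5 and Hoxb9 are highest in MEF, Hoxb1 is high in Epi_fema alone (1.84 FPKM), and Hoxc12 and Hoxc13 are high in both ESC libraries.

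Of the 40 members 4 (10%) were lower in EpiSC than in ESC and none higher, where 10.1% of all genes tested were lower and 6.86% higher, so the count itself was at the background. The median log2 fold change was 0.44 over the 37 members tested and -0.0222 over all genes. The 4 were the paralogues 12 and 13 Hoxc13, Hoxc12 and Hoxb13, and the anterior gene Hoxd1. The filter admits a gene high in 1 library alone. Hoxc12, Hoxb13 and Hoxd1, at most at 0.258 FPKM in EpiSC, entered through other cell types, which favours a call of lower in EpiSC. Other posterior genes of the same clusters did not pass: the log2 fold change was -1.58 for Hoxc11, -0.41 for Hoxb9, -0.25 for Hoxc9 and 0.095 for Hoxc10 (edgeR adjusted p = 0.399, 0.799, 0.919 and 0.958).

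Hoxc13, a posterior gene best known from hair and nail, was at 0.483 FPKM in MEF and 0.0395 in haEpi1, 0.271 in haEpi5, 0.13 in Epi_fema, 0.0443 in Epi_male and 0 in diploid p53-KO EpiSC, with 0.578 and 0.26 in p53-KO and wild-type EpiLC and 3.91 and 4.3 in haploid and diploid ESC. The intervals of the 2 ESC libraries overlapped, and both lay above all other libraries. The log2 fold change of EpiSC against ESC was -5.32 ± 0.868 (edgeR adjusted p = 0.00377). Hoxc12, its neighbour, was at 3.33 FPKM in MEF and 0.0943 in haEpi1, 0.0539 in haEpi5, 0.258 in Epi_fema, 0 in Epi_male and 0 in diploid p53-KO EpiSC, with 0 and 0 in p53-KO and wild-type EpiLC and 2.5 and 5.34 in haploid and diploid ESC, and the log2 fold change was -5.43 ± 0.928 (edgeR adjusted p = 0.00594). The intervals of both ESC libraries overlapped that of MEF for Hoxc12.

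Hoxb13, the most posterior B member and a gene of the prostate and tail, was at 0.12 FPKM in MEF and 0.0882 in haEpi1, 0.126 in haEpi5, 0.0242 in Epi_fema, 0 in Epi_male and 0 in diploid p53-KO EpiSC, with 0.281 and 0.029 in p53-KO and wild-type EpiLC and 1.35 and 0.71 in haploid and diploid ESC (log2 fold change -4.28 ± 1.04, edgeR adjusted p = 0.0209). Hoxd1 was at 0.213 FPKM in MEF and 0.131 in haEpi1, 0.0597 in haEpi5, 0.0572 in Epi_fema, 0 in Epi_male and 0.0319 in diploid p53-KO EpiSC, with 0.498 and 0.206 in p53-KO and wild-type EpiLC and 0.789 and 0.202 in haploid and diploid ESC (-2.99 ± 0.905, edgeR adjusted p = 0.0485). Hoxd1 had only 6 counts in diploid ESC and 5 in haEpi1. The calls of Hoxb13 and Hoxd1 were lost on leaving out either ESC library. Hoxd1 was also lost without haEpi5, Epi_fema, Epi_male or diploid p53-KO EpiSC, each left out alone. With p53 label and ploidy as covariates the calls of Hoxc12 and Hoxd1 were lost, and with the wild-type libraries alone none passed. Of all genes tested 5.89% and 0.184% were lower in these settings, against 10.1% in the main fit. Calls were also lost without the 4 libraries highest in fibroblast genes, by median or by sum. Those fits leave 1 ESC library, and far fewer of all genes were lower in EpiSC there as well.

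Diploid ESC held 5.34 FPKM of Hoxc12 and 4.3 FPKM of Hoxc13, with 8 of the 25 fibroblast genes at 0. The part of fibroblast RNA in the levels of Hoxc12 and Hoxc13 was not tested. Cdx1, a posterior axis regulator upstream of Hox genes, was at 9.98 FPKM in haploid and 10.2 FPKM in diploid ESC and at most 0.518 FPKM in the other libraries. Its log2 fold change of EpiSC against ESC was -5.74 ± 1.05 (edgeR adjusted p = 0.00635). The relation between Cdx1 and these members was not tested.

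MEF were compared with ESC in the same fit. Both comparisons of MEF share the 1 MEF library. Of the 40 members 5 (12.5%) were higher in MEF and none lower, where 12.0% of all genes tested were higher and 9.36% lower, a share near the background in this fit. Other methods called more: DESeq2 called 17 members higher and 1, Hoxc13, lower, where 16.1% of all genes with an adjusted p were higher. Without the low-count filter edgeR called 20 higher, where 8.03% of all genes were. The limma fit on log2(FPKM + 1) called 23 higher and 2, Hoxc13 and Hoxb13, lower, where 16.9% were higher. The median log2 fold change was 3.87 over the 37 members tested and -0.217 over all genes. Hoxa7, a thoracic gene, was at 7.29 FPKM in MEF and 1.49 in haEpi1, 0.58 in haEpi5, 1.87 in Epi_fema, 0.209 in Epi_male and 0.165 in diploid p53-KO EpiSC, with 0.215 and 0.245 in p53-KO and wild-type EpiLC and 0.37 and 0.392 in haploid and diploid ESC (log2 fold change 4.21 ± 1.23, edgeR adjusted p = 0.0375). Hoxb5 was at 1.83 FPKM in MEF and 0.611 in haEpi1, 0.639 in haEpi5, 0.344 in Epi_fema, 0.117 in Epi_male and 0.32 in diploid p53-KO EpiSC, with 0.0222 and 0 in p53-KO and wild-type EpiLC and 0.0727 and 0 in haploid and diploid ESC (5.46 ± 1.33, edgeR adjusted p = 0.0191). Hoxb2, a hindbrain gene, was at 1 FPKM in MEF and 0.126 in haEpi1, 0.0638 in haEpi5, 0.321 in Epi_fema, 0.0156 in Epi_male and 0.119 in diploid p53-KO EpiSC, with 0.0355 and 0 in p53-KO and wild-type EpiLC and 0.0435 and 0 in haploid and diploid ESC (5.3 ± 1.62, edgeR adjusted p = 0.0428). Hoxa5 (4.75, edgeR adjusted p = 0.0406) and Hoxc10 (4.36, edgeR adjusted p = 0.0376) also passed. The 5 calls were lost without diploid ESC, where fewer of all genes were higher in MEF as well. Without haploid ESC Hoxb5 alone of the 5 stayed and other members passed, at a similar share of all genes. Each of these fits leaves 1 ESC library. With the wild-type libraries alone none of the 5 passed, where 2.22% of all genes were higher.

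The Hox sums of both EpiLC libraries lay below those of all ESC and EpiSC libraries but Epi_male. By mean FPKM Hoxd13 and Hoxc13 were among the highest members in EpiLC. Hoxd13, which patterns the digits, was at 1.41 FPKM in MEF and 0.764 in haEpi1, 1.01 in haEpi5, 0.579 in Epi_fema, 0.352 in Epi_male and 0.0718 in diploid p53-KO EpiSC, with 0.623 and 0.852 in p53-KO and wild-type EpiLC and 1.3 and 0.529 in haploid and diploid ESC. It was the highest member of wild-type EpiLC, while 19 IDs were at 0 there and 7 at 0 in p53-KO EpiLC.

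In EpiSC against EpiLC 1 of the 40 members (2.5%) was higher and none lower, where 3.77% of all genes tested were higher and 5.88% lower. The member was Hoxb5, with 0.117 to 0.639 FPKM in EpiSC and 0 and 0.0222 FPKM in EpiLC (log2 fold change 4.9 ± 1.34, edgeR adjusted p = 0.0475). This call rests on 1 count in the 2 EpiLC libraries and was lost on leaving out any one of 6 of the 7 libraries compared. Without Epi_male 3 members passed, where 3.05% of all genes were higher. DESeq2 called 11 members higher, where 9.01% of all genes with an adjusted p were higher. Of the 25 fibroblast genes 3 were also higher in EpiSC: Col5a1 (log2 fold change 2.88), Pdgfrb (2.57) and Fn1 (1.72).

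In EpiLC against ESC edgeR called 0 of the 40 members, where 0.317% of all genes tested were higher and 0.109% lower. At an unadjusted p under 0.05 there were 7 members, a number not set against all genes. DESeq2 called 2, Hoxc12 and Hoxc13, both lower in EpiLC, where 2.31% of all genes with an adjusted p were lower. Hoxc12 had 0 counts in both EpiLC libraries, which gives a log2 bound of -4.39 from 3 counts per library. Hoxc13 had a log2 fold change of -3.25 (edgeR adjusted p = 0.246).

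The haploid p53-KO and the diploid wild-type EpiSC libraries, 2 of each, were compared in a fit of the 5 EpiSC libraries. edgeR called 0 of the 33 members tested (1 at an unadjusted p under 0.05, and 0 by DESeq2), where 0% of 18153 genes were higher and 0% lower. The median log2 fold change was 0.74 over the members tested and -0.00958 over all genes. The member at the unadjusted threshold was Hoxc6, at 1.9 and 3.14 FPKM in haEpi1 and haEpi5 and at 1.15 and 0.567 FPKM in Epi_fema and Epi_male (log2 fold change 1.56 ± 0.638, edgeR adjusted p = 0.976). Within the wild-type pair, Epi_fema was above Epi_male for all 30 of the members at or above 1 FPKM in MEF. These are 2 single libraries, and the 30 were picked by their MEF level. How many of all genes were above in Epi_fema was not counted, so no result about the members is drawn from this.

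Further members were at most at 1.5 FPKM in EpiSC. In the 5 EpiSC libraries Hoxa6 ran from 0 to 1.5 FPKM, Hoxa9 from 0.088 to 1.03, Hoxa11 from 0 to 0.468 and Hoxa13 from 0.0225 to 0.256. Hoxb3 ran from 0 to 0.376 FPKM, Hoxb8 from 0.124 to 1.21 and Hoxc9 from 0 to 0.987. Hoxd3, Hoxd4 and Hoxd12 stayed at or under 0.114 FPKM in EpiSC and under 0.5 FPKM in MEF. Exons of 16 members overlap another gene, 9 on the same and 10 on the opposite strand. The overlap covered 62.8% of the exon bases of Hoxd3, 52.9% of Hoxb3, 35% of Hoxa11 and 52.3% of the Hoxd4 ID at 0. The levels of these genes are therefore uncertain. No exons were at hand for the other Hoxd4 ID, whose levels are given here. The sources used here do not say whether reads were counted by strand, so reads of overlapping antisense pairs cannot be told apart.

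Among the non-coding genes of the clusters, Gm53 and Mir196a-1 followed the ESC and MEF libraries. Gm53, a long non-coding gene between Hoxb13 and Hoxb9, had 700 counts in diploid ESC, 322 in haploid ESC, 317 in MEF and 2 to 81 in EpiSC. Mir196a-1, the gene beside it that encodes the miR-196a-5p printed above, had 79 counts in diploid ESC, 41 in MEF, 34 in haploid ESC and at most 6 elsewhere. Counts at this gene come from longer poly-A RNA and are not levels of the mature microRNA. Hotair, in the C cluster, had 6 counts in MEF, 4 in diploid ESC and 3 in haploid ESC, and Mir196b had 0 in every library.

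Partners and regulators of Hox genes were listed for the same comparisons. Of all genes tested 8.79% were higher and 5.93% lower in MEF than in EpiSC. In EpiSC against ESC 6.86% were higher and 10.1% lower. The counts of this and the other gene lists below stand beside these shares and were not tested against them. Of 9 cofactors, which bind DNA together with Hox proteins, 3 were higher in MEF than in EpiSC: Meis1 (log2 fold change 4.17), Meis2 (3.24) and Pknox1 (1.21). Against ESC, 3 were higher in EpiSC and none lower, with Pbx3 (2.48) and Pbx2 (0.94) among them. The median log2 fold change of the 9 in EpiSC against ESC was 0.94, against -0.0222 over all genes.

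Of 21 Polycomb and trithorax genes, which silence and activate the Hox clusters, 5 were lower in MEF than in EpiSC and 2 higher. Cbx7 (log2 fold change -5.01), Phc1 (-3.35) and Jarid2 (-2.19) were lower, and Bmi1 (2.19) was among the higher. In EpiSC against ESC 5 were lower and none higher: Suz12 (-1.18 ± 0.186, edgeR adjusted p = 0.00336), Wdr5 (-1.06), Cbx7 (-1.04), Eed (-1.04) and Jarid2 (-0.88). Suz12 and Eed encode core subunits of the complex that methylates histone H3 at silent Hox genes. The median of the 21 was -0.51 in EpiSC against ESC.

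Of 18 genes of the retinoic acid pathway, whose ligand activates anterior Hox genes, 5 were higher in MEF than in EpiSC and none lower. They included Aldh1a2 (log2 fold change 4.74) and Aldh1a1 (4.1), which make retinoic acid, and Cyp26b1 (4.17), which degrades it. EpiSC were higher than ESC in 3: Dhrs3 (3.25), Crabp2 (3.2) and Rdh10 (1.42). Of 29 other transcription factors that mark position in mesenchyme, such as limb and branchial arch genes, 12 were higher in MEF than in EpiSC and none lower, with Meox2 (7.46), Tbx2 (5.28), Tbx5 (5.05) and Tbx15 (5.02) among them. Their median log2 fold change was 2.88, and 18 of the 25 fibroblast genes were higher in the same comparison, with a median of 4.7. In EpiSC against ESC 1 of the 29 was higher and 1 lower (Tbx3, -6.65). Of 17 primitive streak and posterior axis genes 1 was higher (Fgf17, 3.44) and 2 lower (Cdx1 and Gsc) in that comparison, and of 12 neural genes 2 were higher (Nes, 3.06, and Map2, 2.46).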

How the data were processed

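Gene counts and FPKM of 10 mouse libraries were used. Reads of poly-T selected RNA were aligned with HISAT2 2.0.5 to mm10 and counted with featureCounts 1.5.0-p3 by the authors, per the submitters' processing notes, and the deposited counts are whole numbers. The deposited FPKM are the authors' rescaling of these numbers: in every library a value equals the count divided by gene length, times 1 constant, with a largest relative deviation of 1.66e-08. Counts of 15862113 to 18814003 per library limit precision for low members, and for log2 bounds a count of 0 was taken as 3.

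A single fit over the 10 libraries compared cell types, and a fit of the 5 EpiSC libraries compared genotypes, with edgeR 4.0.16 in R 4.3.3 (filterByExpr, TMM, quasi-likelihood F test, Benjamini-Hochberg over all genes, threshold 0.05), after a test on simulated data. A group of 1 library was assumed to vary like the others. Alternatives were no filter, DESeq2 1.42.0 size factors and Wald test, limma 3.58.1 on log2(FPKM + 1) and log2(FPKM + 0.1), covariates, wild-type libraries alone and leaving out each library. Members, the 8 gene lists and the rule for named genes (the 3 highest in MEF per cluster, the highest in EpiSC, EpiLC and ESC, and those past the threshold; from other lists up to 4 with the largest change) were chosen with earlier results of these data known. Exon overlaps and 3′ UTRs came from GENCODE vM21, where 39 of the 40 IDs were found, 38 with identical coordinates. Hoxb1 and some genes outside that rule were named after their values were seen. Results for a few genes, 1 member among them, are not reported here by gene, and counts, sums and medians include them.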

Additional observations from a re-analysis of the deposited data

Results flagged for a closer look

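Among 39 members over the 5 EpiSC libraries, 2 had a highest library far from the others, by the gap to the nearest library over the whole range (critical value 0.71). Hoxb1 was at 1.836 FPKM in Epi_fema, with a ratio of 0.833. Hoxd3 was at 0.1144 FPKM in the same library, with a ratio of 0.768, from 9 counts. About 1 in 20 such groups is picked by chance, so among 39 members a number near the 2 found would be picked by chance alone. The share of all genes picked was not counted, and members of 1 library are not independent.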

How the results depend on the processing

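Of 231 alternative values of the 17 member calls, 146 kept the call, 85 lost it and 0 changed sign. The count of members called in MEF against EpiSC, MEF against ESC, EpiSC against ESC and EpiSC against EpiLC was 7, 5, 4 and 1. Of all genes 14.7%, 21.3%, 16.9% and 9.65% were called, in either direction. Without a low-count filter 18, 20, 6 and 11 members passed, where 10.3%, 14.3%, 12.8% and 8.8% of all genes were called. With DESeq2 10, 18, 6 and 11 passed, where 23%, 31.1%, 19.3% and 17.6% were. With limma on log2(FPKM + 1) 24, 25, 3 and 0 passed, where 19.3%, 29.5%, 16% and 9.55% were. With limma on log2(FPKM + 0.1) 10, 18, 3 and 1 passed, where 17.6%, 29.5%, 17.3% and 10.8% were. The share with p53 label and ploidy as covariates was 11.7%, 19.5%, 10.6% and 6.15%. With p53 label and ploidy as covariates 5, 13, 2 and 2 passed, with wild-type libraries only 0, 0, 0 and 0, without the 4 libraries highest in fibroblast genes by median 14, 6, 1 and 0, and without the 4 highest by sum 0, 1, 0 and 0 (both chosen after seeing the data). The share of all genes called, in either direction, in MEF against EpiSC was 14.7%, against 10.3% without the filter, 0.33% with wild-type libraries only, and 8.67% and 2.08% without the 4 libraries by median and by sum. Of the members called in MEF against ESC all were higher in MEF, except 1 of 18 with DESeq2, 2 of 25 and 1 of 18 with limma. On leaving out 1 library the counts ran from 4 (without haEpi5) to 7, from 0 (without diploid ESC) to 8 (without haploid ESC), from 2 (without diploid ESC) to 5, and from 0 to 3 (without Epi_male). On leaving out 1 library fewer of all genes were called too in these 4 comparisons. The exception was MEF against ESC without haploid ESC, where the share was similar. With wild-type libraries only 3.51% of all genes were called in MEF against ESC and 0.339% in EpiSC against ESC. In EpiLC against ESC, where 0 passed, 1 did without the filter, 2 with DESeq2, and 2 and 1 with limma. Between haploid p53-KO and wild-type EpiSC 0 passed in all settings run. The causes of these shifts were not tested, beyond the smaller number of libraries in the reduced fits. The 4 libraries highest in fibroblast genes by median were also the 4 pluripotent libraries with the largest Hox sums. The median log2 fold change of the members in MEF against EpiSC stayed at 3.0 with Hoxb1 at its bound. Members at or above 0.5 FPKM numbered 30 in MEF and 1 in Epi_male. No paired analysis was possible because the libraries of the groups differ in line or sex and their numbers mark no shared source. Members with fewer than 3 counts in a library cannot be ordered there.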
